A study of Rattus norvegicus with 40 samples.

Results

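Plasma miRNAs of rats that had a traumatic brain injury (TBI) and did not develop epilepsy (TBI−) were compared with those of sham-operated rats on day 9 (D9) after the injury. The comparison rests on 13 of the 40 small RNA libraries, 9 from TBI− rats and 4 from sham rats, chosen by group and day as the sample titles give them. All rats were adult male Sprague-Dawley rats. TBI− rats had a lateral fluid-percussion injury set to be severe, and sham rats had the craniotomy and anesthesia without the impact. Epilepsy was diagnosed from continuous video-EEG months after the blood sample, so TBI− means that no epilepsy was found in that recording, not that no seizure ever occurred. Blood was drawn from the tail vein under isoflurane into EDTA tubes, and RNA came from pooled plasma aliquots of a single rat, so each library is 1 rat on 1 day. The 7 rats with TBI that did develop epilepsy (TBI+) served only as a side comparison, and all groups shared the surgery. Reads were found on 541 of the 752 miRNAs of the count table in at least 1 of the 20 D9 libraries, and on 519 in the 13 libraries compared here.

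MiRNAs are short RNAs, cut from a hairpin whose arms give a 5p and a 3p strand, that guide the silencing of messenger RNAs through a seed near their 5′ end. Blood cells, vessel walls, liver and other organs release them into plasma inside vesicles and bound to proteins, and damaged brain tissue can add brain-enriched miRNAs. The mixture also holds miRNAs from red cells broken during sampling and from platelets and leukocytes left in the plasma. In bulk plasma, fewer cells releasing a miRNA and less release per cell cannot be told apart, nor can a lower share of a miRNA and a higher share of all others.

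The sequences of the miRNAs on which the comparison turned are shown first, because several of them share a seed or a hairpin family and because reads of like sequences can be counted for each other. They are mature sequences from RefSeq (GRCr8), matched by name, with the seed (bases 2 to 8) in capitals. RefSeq held a mature sequence for 55 of the 61 miRNAs named in the analysis. The miRNAs called higher in TBI− rats were the following, and they included 4 strands of the let-7 family from the 3p arm.
let-7a-1-3p: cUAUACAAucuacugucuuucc
let-7c-2-3p: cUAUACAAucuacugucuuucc
miR-98-3p: cUAUACAAcuuacuacuuucc
let-7d-3p: cUAUACGAccugcugccuuucu
let-7f-5p: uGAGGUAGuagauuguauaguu
miR-222-3p: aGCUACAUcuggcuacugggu
miR-340-3p: uCCGUCUCaguuacuuuauagcc
The mature sequences of let-7a-1-3p and let-7c-2-3p were identical, and their counts differed by 0.487% over all libraries, so they are 1 measurement. Both share their seed with miR-98-3p. Among the miRNAs called lower, the next set shows those with a level in 1 sham library far above all others, and it contains 2 pairs with a common seed, miR-7a-5p with miR-7b and miR-146a-5p with miR-146b-5p.
miR-24-3p: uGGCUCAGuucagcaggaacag
miR-185-5p: uGGAGAGAaaggcaguuccuga
miR-7a-5p: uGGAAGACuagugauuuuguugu
miR-7b: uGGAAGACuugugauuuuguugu
miR-146a-5p: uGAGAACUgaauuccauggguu
miR-146b-5p: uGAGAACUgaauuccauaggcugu
A last set is shown because it led the differences once that sham library was left out. The pair miR-19a-3p and miR-19b-3p has a common seed.
miR-19a-3p: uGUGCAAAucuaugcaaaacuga
miR-19b-3p: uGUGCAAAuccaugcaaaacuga
miR-128-3p: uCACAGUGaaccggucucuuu
miR-223-3p: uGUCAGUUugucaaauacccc
miR-1247-3p: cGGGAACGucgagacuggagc
miR-22-3p: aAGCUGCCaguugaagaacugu

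The sham libraries of D9 were shallow. Their totals of reads on miRNAs were 140636, 162125, 202059 and 358202 in rats 1 to 4, against 332161 to 2864893 in TBI− rats with a median of 1384849. The sham mean was 215756 ± 98315 and the TBI− mean 1328565 ± 808238 (SD, n = 4 and 9), a 6.16-fold difference (two-sided exact permutation test over the 715 ways to choose 4 of 13 rats, p = 0.0154, adjusted p = 0.0385 over 5 measures). Only sham rat 4 reached into the TBI− range. The number of miRNAs with a read was 317 ± 32.7 in sham and 396 ± 36.0 in TBI− rats (SD, n = 4 and 9; two-sided exact permutation test, p = 0.00559, adjusted p = 0.0280). Once every library was thinned at random to the smallest total, 140636 reads, the numbers were 299.8 ± 18.1 and 304.2 ± 9.00 (two-sided exact permutation test, p = 0.559). A floor of 3 reads stood for 8.38 to 21.3 counts per 1000000 reads (CPM) in sham and 1.05 to 9.03 CPM in TBI− libraries, so miRNAs below about that level could be seen in TBI− rats and missed in sham rats. CPM scales each count to its library's total, and floors cover counting error only. The labels also give each library a running number whose meaning is not stated in the sources used here. The 4 sham libraries of D9 fall in a stretch of these numbers without any D9 library of a TBI− rat. Between TBI− and sham rats, library order and group hence cannot be told apart. The same stretch held the D9 libraries of TBI+ rats 1 to 4, each numbered directly after a sham library. Their totals were 1301295, 611876, 1267480 and 544992 reads. Whether library order plays a part in depth was not tested.

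**Figure D1:**
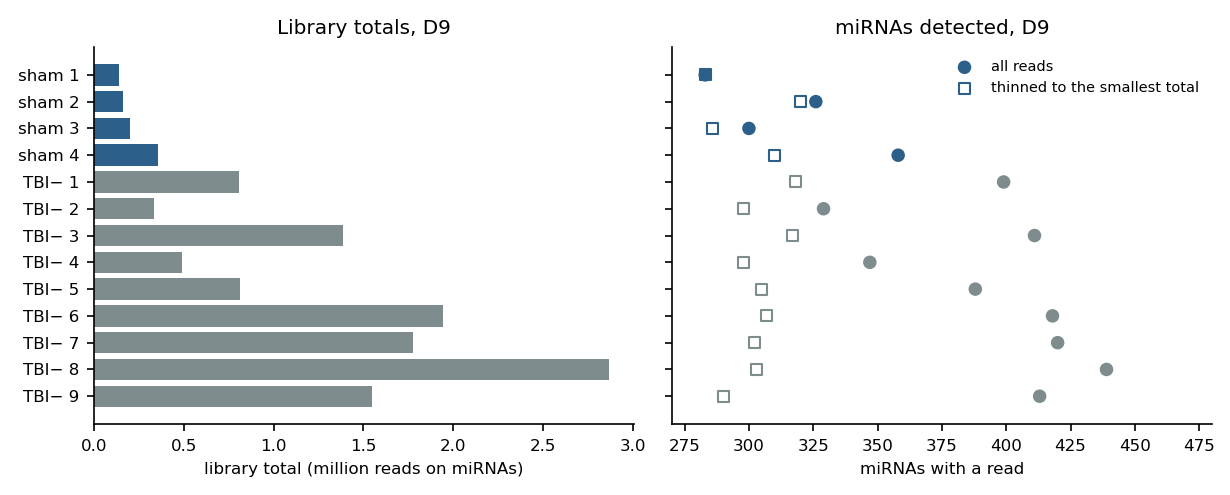
Left, library totals of reads on miRNAs for each rat, with the axis in units of 1000000 reads (sham in blue, TBI− in grey); right, the number of miRNAs with a read per rat with all reads (filled circles) and after thinning to 140636 reads (open squares). The sham bars are short, at most 358202 reads, and the mean numbers of detected miRNAs, 317 and 396, come to 299.8 and 304.2 after thinning.

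The share of reads on the 10 most abundant miRNAs of each library was 64.7% ± 6.72 in sham rats and 60.8% ± 4.54 in TBI− rats (SD, n = 4 and 9; two-sided exact permutation test, p = 0.229). The log2 ratio of miR-451-5p, which red cells carry, to miR-23a-3p, a common measure of hemolysis, was 1.13 ± 0.229 in sham and 1.26 ± 0.590 in TBI− rats (SD, n = 4 and 9; two-sided exact permutation test, p = 0.688). Neither difference exceeded the spread between rats. The defining brain miRNA miR-124-3p had 0, 0, 0 and 0 CPM in sham rats 1 to 4 and reads in 2 of the 9 TBI− rats, with at most 6.11 CPM. The liver miRNA miR-122-5p was listed at 0 in all 40 libraries. So were miR-1-3p and miR-133a-3p of the muscle list, miR-126a-5p of the vascular list, let-7d-5p and let-7e-5p. Whether these zeros come from the plasma or from the counting was not tested, so they do not show absence from plasma. MiR-150-5p of lymphocytes, miR-223-3p of myeloid cells and miR-451-5p of red cells were present in all 13 libraries.

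With all 4 sham rats, 26 of 541 miRNAs (4.81%) were differentially expressed on D9, 7 upregulated (1.29%) and 19 downregulated (3.51%) in TBI− rats (TMM scaling, quasi-likelihood test of edgeR, Benjamini-Hochberg adjusted p under 0.05). At an unadjusted p under 0.05 there were 67 (12.4%). DESeq2 called 22 (4.07%), 8 higher (1.48%) and 14 lower (2.59%), and 17 miRNAs were called by both tools. Some of the other edgeR calls, miR-146a-5p among them, had no DESeq2 adjusted p with all rats, so DESeq2 did not test and reject them. Once sham rat 2 was left out, DESeq2 did give miR-146a-5p a value (log2FC −0.31, DESeq2 adjusted p = 0.696). The split between directions moved with the scaling, from 7 higher and 19 lower with TMM to 3 and 21 with RLE factors and to 1 and 20 with miR-28-3p as the reference. The median log2FC over all 541 miRNAs was 0.21 with TMM, 0.06 with RLE and 0 with miR-28-3p, and the values that follow are on the TMM scale unless another is named.

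The 19 downregulated miRNAs were mostly miRNAs with a high value in sham rat 2. In 17 of the 19, this library lay above all other 12 libraries, and in 16 of them by more than 2 times. MiR-24-3p, which is made from the same hairpin clusters as miR-23 and miR-27, had 555, 53601, 831 and 1061 CPM in sham rats 1 to 4, and TBI− rats had from 349 to 859 CPM with a median of 572 (log2FC −4.41 ± 0.62 (SE), edgeR adjusted p = 9.78e-06). Sham rats 1 and 3 lay within the TBI− range and sham rat 4 somewhat above it, all far below sham rat 2. On D2 the same sham rat had 853 CPM of miR-24-3p, and on D9 the 7 TBI+ rats had 509.9 to 1109 CPM.

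MiR-185-5p, which can repress regulators of lipid synthesis, was the most extreme of these. It had 0, 1622, 14.8 and 0 CPM in sham rats 1 to 4, and from 0 to 11.81 CPM with a median of 3.87 in TBI− rats (log2FC −6.17 ± 0.85 (SE), edgeR adjusted p = 9.78e-06). The count in sham rat 2 was 263 reads, of 266 in all 4 sham libraries. Both miR-146 family members, which dampen NF-κB signaling, belonged to this set. MiR-146a-5p had 626, 13311, 559 and 1262 CPM in sham rats and from 298 to 985 CPM with a median of 662 in TBI− rats (log2FC −2.43 ± 0.48 (SE), edgeR adjusted p = 0.00101). MiR-146b-5p had 505, 3368, 337 and 712 CPM in sham rats and from 217 to 712 CPM with a median of 409 in TBI− rats (log2FC −1.39 ± 0.40 (SE), edgeR adjusted p = 0.0414). For both, sham rats 1 and 3 lay within the TBI− range. Sham rat 4 lay above that range for miR-146a-5p and near its top for miR-146b-5p, far below sham rat 2.

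The miR-7 family, abundant in endocrine cells and neurons, showed the same form. MiR-7a-5p had 0, 395, 19.8 and 5.58 CPM in sham rats and at most 9.93 CPM in TBI− rats, and miR-7b had 0, 185, 9.90 and 0 CPM and at most 1.69 CPM. MiR-200c-3p of epithelial cells had 28.4, 401, 29.7 and 44.7 CPM in sham rats and from 12.9 to 40.7 CPM with a median of 18.6 in TBI− rats. MiR-194-5p, made in liver and gut, had 114, 1086, 39.6 and 268 CPM and from 24.1 to 179.1 CPM with a median of 115. In sham rat 2 these 4 were each above all of the other 12 libraries.

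MiR-150-3p of lymphocytes had 170.7, 1018, 148 and 235 CPM in sham rats and from 106 to 179.1 CPM with a median of 132.2 in TBI− rats. The other members with their peak in sham rat 2 had lower levels. MiR-455-3p, linked to cartilage, had 333 CPM in sham rat 2 and at most 4.97 CPM in the other 12 libraries. MiR-494-3p of the imprinted Dlk1-Dio3 locus had 197 CPM against at most 12.9 CPM, and miR-503-5p had 123 CPM against at most 8.14 CPM. MiR-3068-5p (92.5 CPM), miR-1b of muscle (67.8 CPM) and miR-25-5p (204 CPM) were highest there too. MiR-206-3p, a skeletal muscle miRNA, had 2 reads in sham rat 2 and none in the other 12 libraries, which is under the floor in both groups, and no fold is given. The counts of miR-503-5p were even numbers in all 25 libraries that had any, out of 40.

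Together the 19 downregulated miRNAs took 7.61% of the reads of sham rat 2, against 0.206% to 0.370% in the other sham rats and 0.104% to 0.294% in TBI− rats. Among all 541 miRNAs, 24 had at least 10 reads in sham rat 2 and more than 2 times the CPM of every other of the 13 libraries, while the same count for each other library lay between 0 and 4. The set went beyond the called miRNAs, as miR-150-5p had 15124, 72512, 8636 and 15019 CPM and miR-155-5p 127.99, 814, 223 and 189.8 CPM in sham rats 1 to 4. Across the 275 miRNAs that passed edgeR's filter on low counts, Spearman's rho between sham rat 2 and TBI− libraries had a median of 0.915, and between the other sham rats and TBI− libraries 0.917, as a description over miRNAs of shared libraries.

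**Figure D2:**
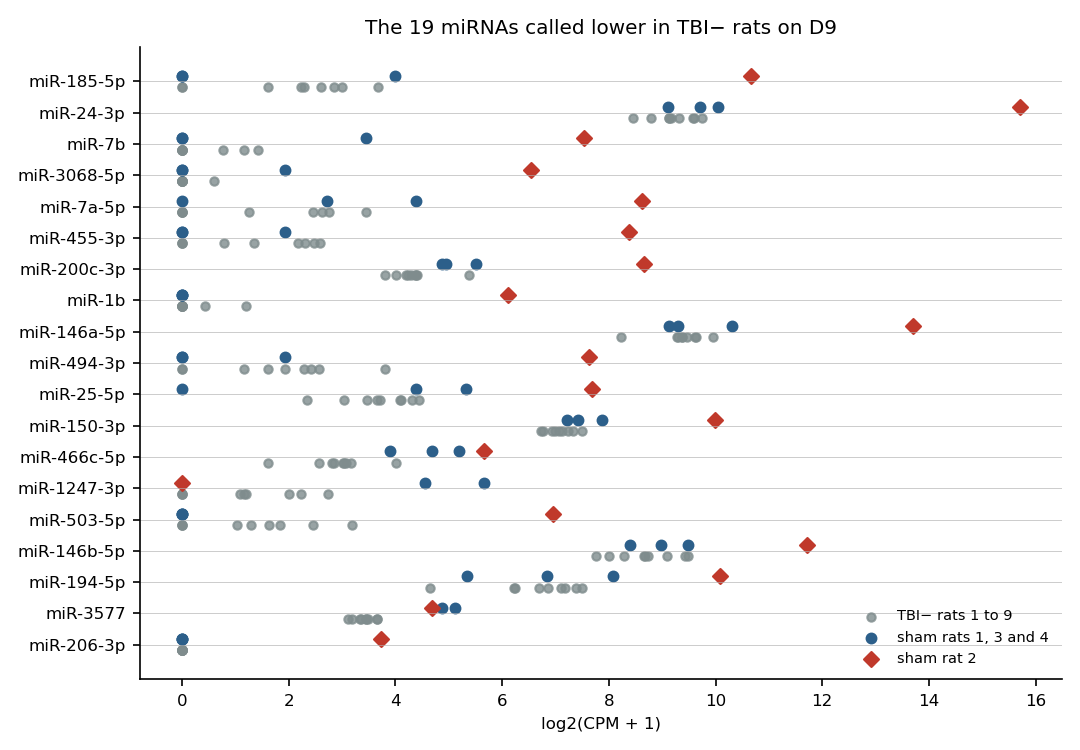
Levels of the 19 miRNAs called lower in TBI− rats, as log2(CPM + 1), in order of p, with TBI− rats in grey, sham rats 1, 3 and 4 in blue and sham rat 2 as red diamonds. For 17 miRNAs the diamond lies to the right of all other points, and miR-1247-3p has its diamond at 0.

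The 3 downregulated miRNAs without such a peak in sham rat 2 were miR-466c-5p, miR-1247-3p and miR-3577. MiR-3577 was the only miRNA of the 541 that was lower in each TBI− rat than in each sham rat. It had 28.4, 24.7, 24.7 and 33.5 CPM in sham rats and from 7.68 to 11.6 CPM with a median of 9.87 in TBI− rats (log2FC −1.42 ± 0.43 (SE), edgeR adjusted p = 0.0464). The sham values rest on 25 reads in all 4 libraries. MiR-466c-5p had 35.6, 49.3, 24.7 and 13.96 CPM in sham rats and from 2.04 to 15.2 CPM with a median of 7.10 in TBI− rats (log2FC −1.86 ± 0.51 (SE), edgeR adjusted p = 0.0341), and its groups overlapped through sham rat 4. MiR-1247-3p had 0, 0, 49.5 and 22.3 CPM in sham rats and from 0 to 5.67 CPM with a median of 1.24 in TBI− rats (log2FC −3.25 ± 0.91 (SE), edgeR adjusted p = 0.0341). Only sham rats 3 and 4 had reads of it, 18 in all, and both lay above the TBI− rats.

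Of the 7 upregulated miRNAs, which kept an unadjusted p under 0.05 without sham rat 2, 5 came from let-7 or miR-98 hairpins. The let-7 family represses cell growth and is abundant in differentiated tissue and in blood. Let-7f-5p, the only 5p strand among them, had 6627, 7143, 8587 and 6923 CPM in sham rats 1 to 4 and from 9227 to 30557 CPM with a median of 15084 in TBI− rats (log2FC 1.22 ± 0.36 (SE), edgeR adjusted p = 0.0429). The groups did not overlap, and the highest value came from TBI− rat 2. Let-7d-3p had 1244, 1351, 1727 and 1443 CPM in sham rats and from 1336 to 4821 CPM with a median of 3241 in TBI− rats (log2FC 1.20 ± 0.33 (SE), edgeR adjusted p = 0.0341). TBI− rat 8 had the lowest level, within the sham range, and TBI− rat 7 lay just above it.

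Let-7a-1-3p, with which let-7c-2-3p was counted, had 35.6, 24.7, 9.90 and 41.9 CPM in sham rats and from 21.1 to 101.3 CPM with a median of 87.8 in TBI− rats (log2FC 1.57 ± 0.44 (SE), edgeR adjusted p = 0.0341). TBI− rat 2 alone fell within the sham range. MiR-98-3p had 0, 6.17, 0 and 2.79 CPM in sham rats, 2 reads in all, and from 3.01 to 28.1 CPM with a median of 19.9 in TBI− rats (log2FC 3.12 ± 0.83 (SE), edgeR adjusted p = 0.0270). With so few sham reads the pooled ratio was 9.02 with a 95% counting interval from 2.47 to 74.9. The direction of the 5 let-7 and miR-98 strands was upward under each of the 47 or 48 alternative settings in which it could be computed, other scalings included, although the adjusted p passed the threshold in only 11 to 24 of them.

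MiR-222-3p, an miRNA of endothelial and smooth muscle cells that represses cell cycle inhibitors, had 49.8, 185, 89.1 and 162 CPM in sham rats and from 144.5 to 431 CPM with a median of 325 in TBI− rats (log2FC 1.39 ± 0.40 (SE), edgeR adjusted p = 0.0415). TBI− rat 4, the lowest, lay within the sham range. MiR-340-3p had no read in any sham rat and from 0 to 32.1 CPM with a median of 18.1 in TBI− rats, with reads in 8 of 9. Against a floor of 3 reads over the 4 sham libraries, it was at least 4.33-fold higher in TBI− rats (edgeR adjusted p = 0.0143). Its counts were even numbers in all 34 libraries that had any, and on D2 sham rats had 10.2 ± 4.45 CPM (SD, n = 4) at a higher depth per library.

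**Figure D3:**
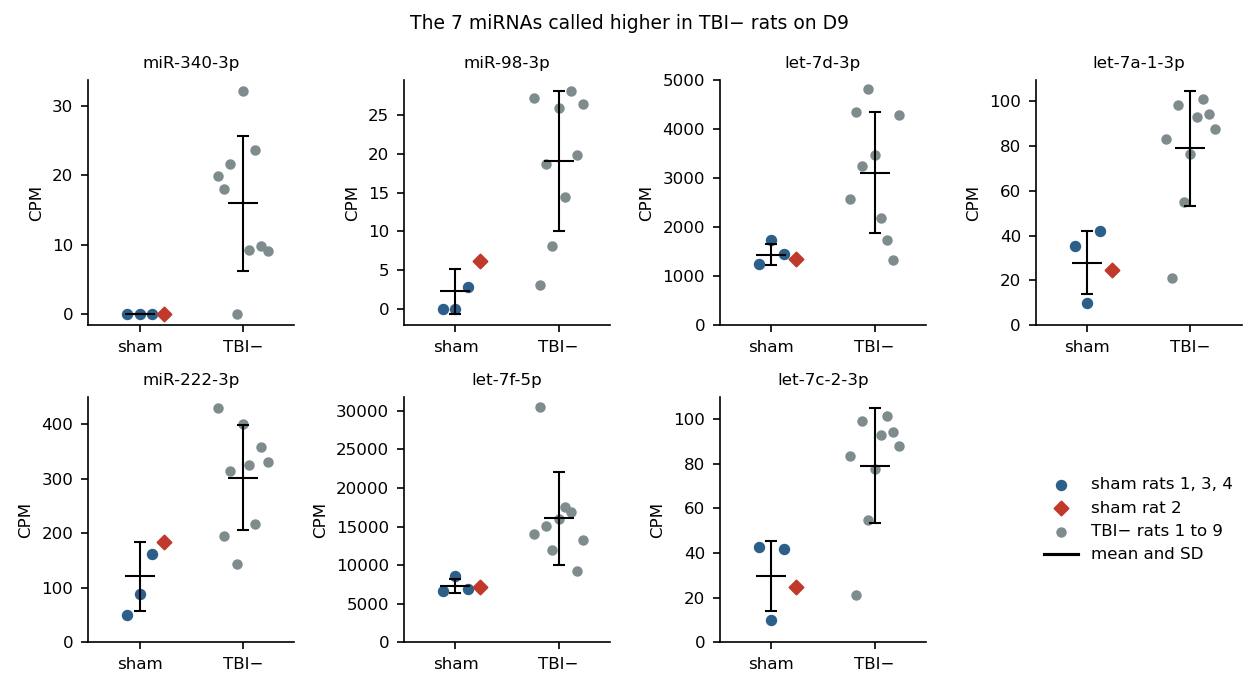
CPM of the 7 miRNAs called higher in TBI− rats, with each rat as a point (sham rat 2 as a red diamond) and bars for the mean and SD of 4 sham and 9 TBI− rats. The groups are apart for let-7f-5p, while for the other 6 at least 1 TBI− rat lies within or beside the sham range.

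Without sham rat 2, 0 of 541 miRNAs were differentially expressed by edgeR, and 63 (11.6%) had an unadjusted p under 0.05, 31 higher (5.73%) and 32 lower (5.91%) in TBI− rats. DESeq2 called 10 (1.85%) without this rat, 8 higher (1.48%) and 2 lower (0.37%), and 6 (1.11%) when its filter was set for a threshold of 0.05. The lowest edgeR adjusted p was 0.0760, for miR-1247-3p. All 7 upregulated miRNAs still had an unadjusted p under 0.05, and of the 19 downregulated ones miR-466c-5p, miR-1247-3p and miR-3577 did. The log2FC of 15 of the 19 downregulated miRNAs moved upward by more than 1, and 5 of them changed sign, whereas none of the 7 upregulated moved by more than 0.60. MiR-24-3p came to a log2FC of −0.44 ± 0.32 (SE), and miR-146a-5p to −0.27 ± 0.35 (SE). MiR-185-5p stood at 0.062 ± 1.03 (SE).

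The count of 0 changed in fits with only some of the TBI− rats. Such fits differ in the number of rats, so their counts do not show that the rats differ. In fits chosen after seeing the data, sham rats 1, 3 and 4 were compared with sets of TBI− rats cut from the order of their library numbers. The cut lies between TBI− rats 9 and 5, where the numbers show no wider gap than elsewhere, and the labels name no such sets. With TBI− rats 5 to 8 alone, edgeR called 29 of 526 miRNAs (5.51%), 15 higher (2.85%) and 14 lower (2.66%), and with TBI− rats 1 to 4 and 9 it called 1 of 527 (0.19%), miR-1247-3p. Among the 29 were 4 of the 7 miRNAs called higher with all rats, let-7a-1-3p, miR-98-3p, miR-222-3p and miR-340-3p, and 1 of the 19 called lower, miR-1247-3p. The rest included miR-19a-3p (log2FC 1.84 with TBI− rats 5 to 8 and 1.47 with the others), miR-19b-3p (1.67 and 1.30) and miR-22-3p (−1.40 and −0.71). TBI− rats 2 and 4, whose libraries had the lowest totals of the group, were both in the set of rats 1 to 4 and 9. Whether the sets of TBI− rats differ from each other, and whether depth plays a part, was not tested.

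**Figure D4:**
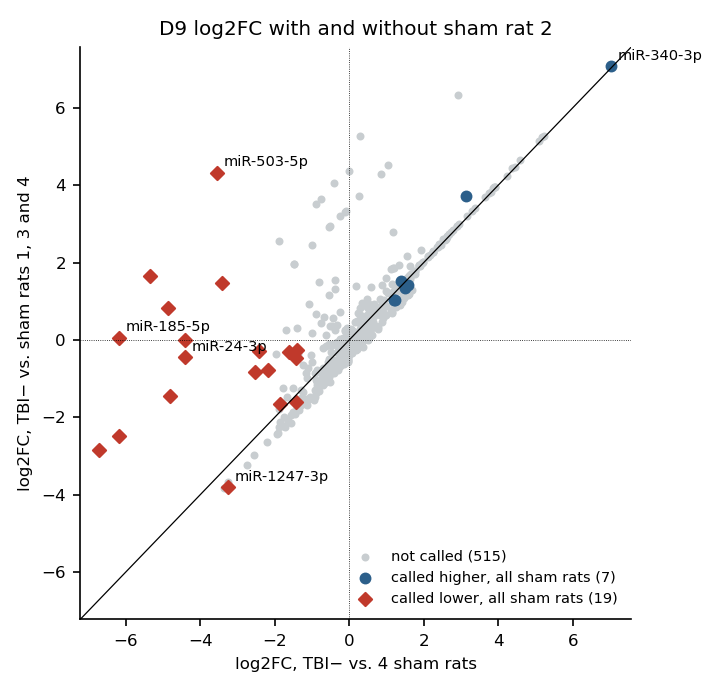
Log2FC of TBI− against all 4 sham rats (horizontal) and against sham rats 1, 3 and 4 (vertical) for 541 miRNAs, with the line of equal values. The 7 miRNAs called higher (blue) stay near the line, and 15 of the 19 called lower (red diamonds) lie more than 1 above it.

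The leading differences without sham rat 2 were partly in other miRNAs. Of those that DESeq2 called without this rat, miR-222-3p, miR-340-3p, let-7a-1-3p, miR-1247-3p and miR-3577 had been called by edgeR with all sham rats. MiR-19a-3p and miR-19b-3p, of the miR-17-92 cluster that promotes cell survival, had the lowest p upward by DESeq2. MiR-19a-3p had 263, 153 and 193 CPM in sham rats 1, 3 and 4 and from 280.0 to 916 CPM with a median of 657 in TBI− rats (log2FC 1.61 ± 0.42 (SE), edgeR adjusted p = 0.131, DESeq2 adjusted p = 0.00319). The groups did not overlap, but sham rat 2, at 759 CPM, lay inside the TBI− range. MiR-19b-3p had 639.9, 337 and 419 CPM in sham rats 1, 3 and 4, and from 524 to 1876 CPM with a median of 1343 in TBI− rats (DESeq2 adjusted p = 0.00933).

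The other miRNAs that only DESeq2 called upward without sham rat 2 were miR-222-3p, miR-223-3p, miR-340-3p, miR-128-3p, let-7a-1-3p and miR-301b-3p, each with adjusted p between 0.0247 and 0.0461. The neutrophil and platelet miRNA miR-223-3p had 1131, 2412, 584 and 1496 CPM in sham rats 1 to 4 and from 975 to 4096 CPM with a median of 2889.6 in TBI− rats. MiR-128-3p, enriched in neurons but also found in blood cells, had 1998, 3750.2, 1737 and 3124 CPM in sham rats and from 2473 to 9359 CPM with a median of 6249.6 in TBI− rats. In both, sham rat 2 had the highest sham value, within the TBI− range. MiR-301b-3p, whose counts differed from those of miR-301a-3p by 2.91% over all libraries, had 334, 796, 213 and 762 CPM in sham rats and from 301 to 1985 CPM with a median of 1305 in TBI− rats, and sham rats 2 and 4 lay within that range.

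Downward, DESeq2 called miR-1247-3p and miR-3577 without sham rat 2 (adjusted p = 0.0247 and 0.0262). The next by edgeR's unadjusted p was miR-22-3p, the most abundant miRNA of these libraries, which took 26.5%, 10.7%, 26.4% and 14.7% of the reads of sham rats 1 to 4 and 7.56% to 19.2% in TBI− rats (log2FC −1.04 ± 0.32 (SE) without sham rat 2, edgeR adjusted p = 0.160). Its highest TBI− values, in rats 4 and 2, came from the TBI− libraries with the lowest totals. MiR-351-5p (log2FC −1.17), miR-455-5p (−1.29), miR-676 (−0.998), miR-147 (−1.08) and miR-328b-3p (−1.02) followed, and none of them passed either tool's threshold. MiR-148b-5p and miR-29a-5p, the remaining 2 of the 10 with the lowest p upward, had 12.3 ± 11.7 and 1.54 ± 3.08 CPM in sham rats, and 38.1 ± 15.6 and 9.82 ± 7.09 CPM in TBI− rats (SD, n = 4 and 9). MiR-6333, with 2 sham reads and 1 TBI− read, was under the floor in both groups.

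Groups that did not overlap were rare. With all rats this held for 5 of 541 miRNAs (0.924%). Let-7f-5p, miR-195-3p, miR-500-3p and miR-511-3p were higher (0.739%) and miR-3577 lower in TBI− rats. MiR-500-3p had 21.3, 6.17, 19.8 and 19.5 CPM in sham rats and from 24.1 to 45.8 CPM with a median of 34.2 in TBI− rats, miR-195-3p had 7.11, 6.17, 0 and 8.38 CPM and from 8.67 to 31.0 CPM with a median of 15.1, and miR-511-3p, made within a macrophage receptor gene, had 7.11, 6.17, 0 and 8.38 CPM and from 8.76 to 30.9 CPM with a median of 16.1. None of these 3 passed the threshold (edgeR adjusted p = 0.198, 0.206 and 0.144). For miR-195-3p and miR-511-3p no sham value exceeded the floor of 3 reads in its library, so sham depth limits what their separation can show. Without sham rat 2, 10 miRNAs (1.85%) did not overlap. At equal depth 3 of 461 did not overlap (0.651%), let-7f-5p upward (0.217%) and miR-3577 and miR-466c-5p downward (0.434%).

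At equal depth, with every D9 library thinned to 140636 reads, 17 of 461 miRNAs (3.69%) were differentially expressed by edgeR, 0 upregulated and 17 downregulated, and 56 (12.1%) had an unadjusted p under 0.05. Of the 19 miRNAs called lower with all reads, 16 were called again. Over 10 random draws, 14 to 21 miRNAs were called, with 0 to 2 of them higher. The 7 upregulated miRNAs kept their direction, with log2FC of 1.06 for let-7f-5p (edgeR adjusted p = 0.110), 1.07 for let-7d-3p (edgeR adjusted p = 0.110), 1.60 for let-7a-1-3p (edgeR adjusted p = 0.0685) and 0.97 for miR-222-3p (edgeR adjusted p = 0.264). MiR-340-3p at 3.81 and miR-98-3p at 2.45 had edgeR adjusted p of 0.149 and 0.169. Thinned and without sham rat 2, miR-1247-3p alone was called (0.219%), with a log2FC of −4.22, 52 miRNAs (11.4%) had an unadjusted p under 0.05, and 0 to 8 miRNAs were called over the 10 draws.

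The fit was also repeated with the depth of each library in the model. With the log2 library total as a term of the model, 0 of 541 miRNAs were called by edgeR with or without sham rat 2, and 66 (12.2%) and 42 (7.76%) had an unadjusted p under 0.05. In that fit, with all sham rats, the log2FC was 1.60 for let-7d-3p and 1.02 for let-7f-5p, and it was 0.37 for let-7a-1-3p and 0.54 for miR-222-3p (edgeR adjusted p = 0.122, 0.309, 0.907 and 0.766). Without sham rat 2, the log2FC of miR-22-3p was −0.19 and that of miR-19a-3p 0.70 (edgeR adjusted p = 0.945 and 0.757). Since sham and TBI− totals hardly overlap, the library total and the group cannot be told apart in such a fit.

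Groups of miRNAs by cell type or cluster are given by their counts and by their median log2FC, beside 0.21 for all 541. The let-7 family, 3p and 5p strands together, had 5 of 19 detected members upregulated, against 1.29% of all miRNAs, and none downregulated, with a median of 0.90. Let-7a-1-3p and let-7c-2-3p are 1 measurement among these 5. With sham rat 2 left out, 6 of 19 had an unadjusted p under 0.05 upward, against 5.73% of all. Let-7a-5p, the second most abundant of the family, had a mean of 14465 ± 3447 CPM in sham rats, and 25338 ± 5993 CPM in TBI− rats (SD, n = 4 and 9; log2FC 0.90, edgeR adjusted p = 0.106). Let-7i-5p had 9683 ± 5911 and 9646 ± 5629.8 CPM (SD, n = 4 and 9).

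Brain-enriched miRNAs, which report on injured brain tissue when they reach the blood, had 29 of 36 listed members detected. Of the 29, 0 were called by edgeR in either direction, against 4.81% of all miRNAs. MiR-9a-3p and miR-434-3p had 0 reads in all 40 libraries. The study did detect both by RT-qPCR in D2 plasma of the same rats, so the counts say nothing about these members. Their median was 0.57 over all and 0.025 over the 13 better counted. Their summed level lay between 3855 and 5557 CPM in sham and between 4732 and 10820 CPM in TBI− rats. A large part of these sums was miR-128-3p, also found in blood cells, so they say little about the other members. The member miR-128-3p was just short of edgeR's threshold (log2FC 1.33, edgeR adjusted p = 0.0523). DESeq2 called it upward with all rats (DESeq2 adjusted p = 0.0448). MiR-132-3p and miR-212-3p, neuronal miRNAs induced by activity, had 14.2, 148, 14.8 and 53.0 CPM and 0, 61.7, 4.95 and 41.9 CPM in sham rats 1 to 4, and from 12.2 to 67.5 CPM with a median of 38.7 and from 3.01 to 28.7 CPM with a median of 16.6 in TBI− rats. Sham rat 2 was above all TBI− rats for both. MiR-129-5p had 8.50 ± 10.1 CPM in sham and 3.85 ± 4.12 CPM in TBI− rats (SD, n = 4 and 9). MiR-136-3p and miR-323-3p, both of the Dlk1-Dio3 locus, had from 6.02 to 81.5 CPM with a median of 32.4 and from 0 to 12.4 CPM with a median of 3.01 in TBI− rats, with sham ranges of 4.95 to 30.8 CPM and 0 to 18.5 CPM. The whole Dlk1-Dio3 list had 1 of 59 detected members called, miR-494-3p, against the same 4.81%, and 2 of its detected members had no read in the 13 libraries.

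Of all 541 miRNAs, 3.51% were called downward and 4.81% in either direction, against which the counts of blood cell lists stand. Red cell members had 0 of 10 called (median 0.51), and their summed level lay between 93161 and 145987 CPM in sham and between 116467 and 258227 CPM in TBI− rats. On average, miR-92a-3p made up most of that level in both groups. MiR-451-5p had 2247, 4151, 1653 and 4481 CPM in sham rats and from 1414 to 10873 CPM with a median of 5262 in TBI− rats (log2FC 0.92, edgeR adjusted p = 0.408). Myeloid and inflammatory miRNAs had 2 of 13 called, both miR-146 strands, downward. Lymphocyte miRNAs had 1 of 4 called, miR-150-3p, downward, with a summed level of 75849 CPM in sham rat 2 against 9131 to 16055 in the other sham rats and 9295 to 32392 in TBI− rats. The part of leukocyte miRNAs in the difference of sham rat 2 was not tested.

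Of the miRNAs of other organs, the vascular list had 0 of 5 called, the liver and gut list 1 of 5 (miR-194-5p), the epithelial list 1 of 11 (miR-200c-3p), the muscle list 2 of 8 (miR-1b and miR-206-3p) and the endocrine list 2 of 11 (miR-7a-5p and miR-7b), all of these downward, as 3.51% of all miRNAs were, with the peak in sham rat 2. The cartilage list had 1 of 4 called (miR-455-3p). MiR-140-3p, its most abundant member, had 14847, 18782, 10952 and 6572 CPM in sham rats and from 4797 to 10608 CPM with a median of 6251 in TBI− rats, just short of edgeR's threshold (log2FC −0.87 ± 0.27 (SE), edgeR adjusted p = 0.0599), while DESeq2 called it (log2FC −1.01, DESeq2 adjusted p = 0.00882). The miR-23, miR-27 and miR-24 clusters had 1 of 10 called (miR-24-3p), while miR-23a-3p and miR-27a-3p, made from the same transcripts and counted within 3.08% and 3.54% of miR-23b-3p and miR-27b-3p, had 981, 1961, 629 and 2490.2 CPM and 9585, 10819, 5617 and 19308 CPM in sham rats 1 to 4, with no peak of that size in sham rat 2. The miR-17-92 and related clusters had 1 of 25 called (miR-25-5p), and the miR-322, miR-503, miR-351, miR-542 and miR-450 cluster 1 of 12 (miR-503-5p), with 4 of 12 at an unadjusted p under 0.05 downward without sham rat 2, against 5.91% of all. The reference list, with miR-191a-5p, miR-103-3p and miR-28-3p, had 0 of 6 called.

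The 10 most abundant miRNAs of the 13 libraries held no called miRNA. After miR-22-3p came miR-92a-3p, found in red cells, with 90456 ± 12719 CPM in sham and 121367 ± 33758 CPM in TBI− rats (SD, n = 4 and 9; log2FC 0.51, edgeR adjusted p = 0.429), and miR-192-5p of liver and gut with 68685 ± 26144 and 54996 ± 23672 CPM. MiR-10a-5p and miR-10b-5p, whose counts differed by 0.328% over all libraries and are not told apart, had a log2FC of 0.39. MiR-30a-5p (0.065), miR-30e-5p (0.072) and miR-30d-5p (0.051) had log2FC near 0, and miR-191a-5p (0.58) and miR-16-5p (0.53) were above it without passing the threshold. MiR-28-3p, used as a reference in plasma, had 1123, 611, 979.9 and 815 CPM in sham rats 1 to 4 and from 826 to 1092 CPM with a median of 899 in TBI− rats, and its lowest level was that of sham rat 2.

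The D9 difference was next set beside that of TBI+ rats, which share the sham controls. None of the 541 miRNAs passed the threshold between TBI− and TBI+ rats by edgeR (0%, with 22 or 4.07% at an unadjusted p under 0.05) or by DESeq2 (0, with 12 at an unadjusted p under 0.05). TBI+ against sham gave 10 calls (1.85%), all downward, and 0 without sham rat 2. TBI+ rats averaged 13716 ± 7349 CPM of let-7f-5p and 1853 ± 523 CPM of let-7d-3p (SD, n = 7), while TBI− rats averaged 16055 ± 6007 and 3110.3 ± 1234 CPM, respectively (SD, n = 9). For let-7d-3p the difference between TBI− and TBI+ had a log2FC of 0.69 ± 0.27 (SE, edgeR adjusted p = 0.802). MiR-3577 had 6.42 to 19.2 CPM in TBI+ rats.

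The same rats had been sampled on D2, when the TBI− to sham comparison gave 35 calls of 565 miRNAs (6.19%), 18 higher (3.19%) and 17 lower (3.01%). Whether the D9 difference itself departed from the D2 difference was tested with the interaction of day and group, with the rat as a block. The interaction was significant for 7 of 568 miRNAs (1.23%), 5 with a higher (0.88%) and 2 with a lower (0.352%) TBI− to sham ratio on D9 than on D2 (edgeR, adjusted p under 0.05). Let-7d-3p, miR-222-3p and miR-1249 were called downward on D2 (log2FC −1.19, −0.86 and −1.67; edgeR adjusted p = 0.000350, 0.00696 and 0.00117), and the first 2 upward on D9. MiR-1249 on D9 had a log2FC of 1.35 ± 0.57 (SE, edgeR adjusted p = 0.243).

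Let-7d-3p had 4107, 5019, 5018 and 3092 CPM in sham rats 1 to 4 on D2 and 1244, 1351, 1727 and 1443 CPM on D9, so each sham rat had less on D9. TBI− rats had from 1083 to 2759 CPM with a median of 1645 on D2 and from 1336 to 4821 CPM with a median of 3241 on D9 (change of the difference 2.25 ± 0.46 (SE), edgeR adjusted p = 0.000722). MiR-222-3p had 283, 426, 475 and 414 CPM in sham rats on D2 and 49.8, 185, 89.1 and 162 CPM on D9, lower in each rat. TBI− rats had from 134.3 to 269 CPM with a median of 208 on D2 and from 144.5 to 431 CPM with a median of 325 on D9 (change 2.27 ± 0.53 (SE), edgeR adjusted p = 0.00297).

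Let-7f-5p was also lower on D9 in each sham rat, with 16302, 13815, 15137 and 12504 CPM on D2 and 6627, 7143, 8587 and 6923 CPM on D9, and TBI− rats had from 4342 to 13347 CPM with a median of 7668 on D2 (change 1.80 ± 0.43 (SE), edgeR adjusted p = 0.00458). MiR-1249 changed by 2.82 ± 0.65 (SE, adjusted p = 0.00297, edgeR) and miR-223-3p by 1.62 ± 0.47 (SE, adjusted p = 0.0469, edgeR). The brain-enriched miR-129-5p went the other way. It had 0, 33.6, 11.9 and 10.5 CPM in sham rats and from 34.9 to 95.3 CPM with a median of 74.0 in TBI− rats on D2, and 14.2, 0, 19.8 and 0 CPM and from 0 to 12.4 CPM with a median of 2.25 on D9 (change −3.78 ± 1.002 (SE), edgeR adjusted p = 0.0155). The seventh, miR-185-5p, rested on the D9 library of sham rat 2, since without this rat the change was −0.11 (edgeR adjusted p = 1). Without sham rat 2 on both days, 20 miRNAs were called (3.53%), 15 with a higher (2.65%) and 5 with a lower (0.882%) ratio on D9, and the other 6 of the 7 were among them.

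**Figure D5:**
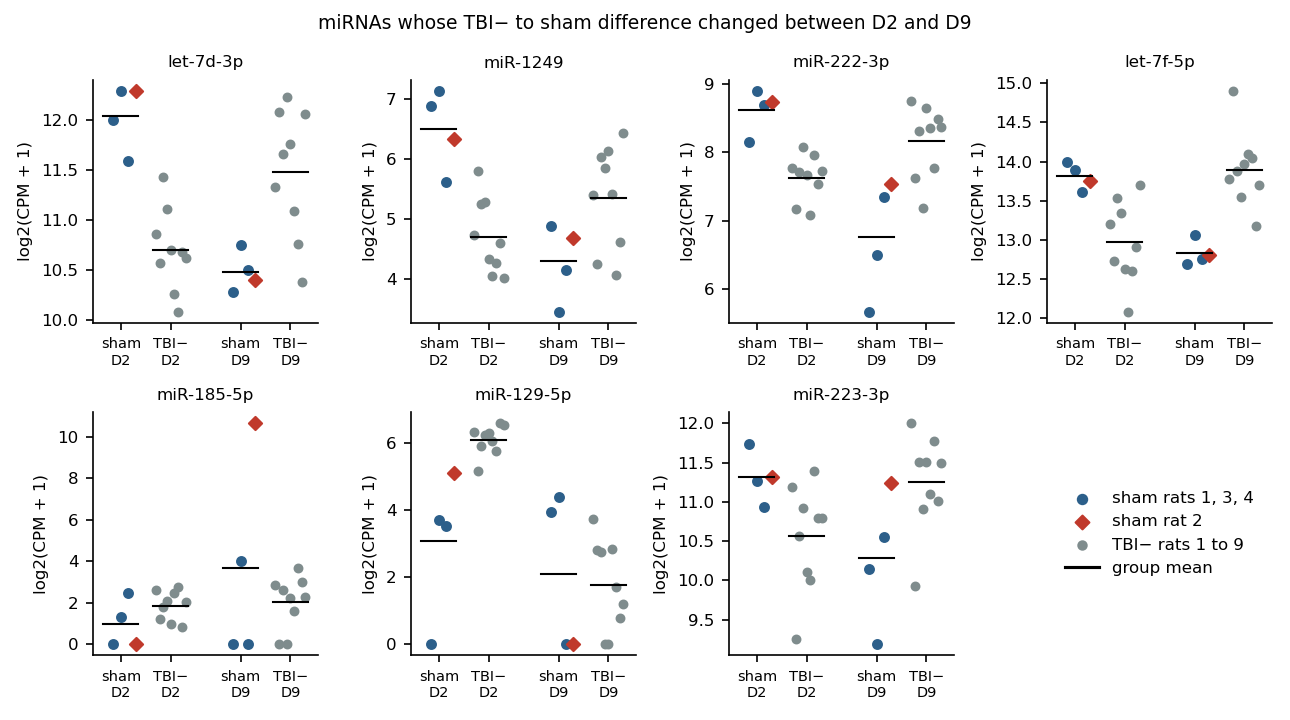
Levels of the 7 miRNAs with a significant interaction of day and group, as log2(CPM + 1), for sham and TBI− rats on D2 and D9, with the group mean as a line and sham rat 2 as a red diamond. For let-7d-3p, miR-1249, miR-222-3p, let-7f-5p and miR-223-3p, the sham mean lies above the TBI− mean on D2 and below it on D9.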

How the data were processed

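Small RNA was sequenced from the plasma of 20 rats on D2 and D9 (40 libraries, single reads on an Illumina HiSeq). Per the labels and the study's methods, the authors checked reads with FastQC 11.8, trimmed them with Trimmomatic 0.36, aligned them with Bowtie2 to the Rno6 genome, counted them on miRBase miRNAs with featureCounts of Subread, and merged the flow cells of each library. The deposited values are raw read counts per miRNA, without normalization, and no molecular identifiers removed PCR copies. The table holds 752 miRNAs by their miRBase names.

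Groups and days were taken from the sample titles. The 541 miRNAs with a read in any of the 20 D9 libraries were fitted with edgeR 4.0.16 in R 4.3.3 (TMM factors, quasi-likelihood test, all 3 groups in 1 fit, contrast of TBI− and sham), with Benjamini-Hochberg adjustment over all 541 and a threshold of 0.05. DESeq2 1.42.0 and limma 3.58.1 (voom with sample weights) were alternatives, as were other scalings, a filter on low counts, omission of each rat and random thinning of the D9 libraries to 140636 reads. The change from D2 to D9 was tested as an interaction with the rat as a block over 26 libraries. Summaries were made in Python 3.11.15 with pandas 2.3.3, numpy 2.4.6 and scipy 1.17.1, and the plots with matplotlib 3.10.9. The functions were tested on simulated counts. With 200 miRNAs changed 4-fold, the D9 fit recovered 94 of them with 5 false calls. With 200 changed 2-fold it recovered 13 with 0 false calls, so most changes of that size would be missed.

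Named miRNAs were those called with all sham rats, those called without sham rat 2 by either tool, the 10 with the lowest p in each direction without it, the 10 with the highest mean CPM, those whose groups did not overlap, 8 preset ones (miR-28-3p, miR-132-3p, miR-451-5p, miR-136-3p, miR-124-3p, miR-323-3p, miR-129-5p and miR-212-3p), called or abundant list members, and those called in the interaction. The members and lists were chosen with earlier results of these data known. Sham and TBI− rats of 1 number are different rats, and their deviations from the group means did not go together (r of −0.19 to −0.44 over miRNAs), so the numbers pair no samples on D9. D2 and D9 libraries of 1 number come from the same rat by the titles, although their deviations correlated by only −0.33 to 0.31 and 1 of 13 rats matched itself best. P-values of group differences set the difference against the spread between rats, which the D9 edgeR fit estimated from all 3 groups. RefSeq matched 684 of the 752 miRNAs by name. No pair of libraries held identical counts, and no library was left out. MiR-124-3p, miR-148b-5p, miR-150-3p, miR-30d-5p, miR-3577 and miR-455-5p are named without a sequence.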

Additional observations from a re-analysis of the deposited data

Results flagged for a closer look

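Single rats stood apart from their group for several miRNAs, measured as the gap of the extreme rat to its nearest neighbor divided by the range of the group and compared with Dixon's 95% limit. Over sham and TBI− rats and the named miRNAs, 18 of 59 sham groups and 12 of 60 TBI− groups passed the limit. Its chance rate of about 1 in 20 holds for normally distributed values, and CPM with many zeros need not follow it. The ratio is 1 whenever all other rats have 0 CPM, so these counts cannot show an excess over chance. The named miRNAs include those called lower, most of which peak in sham rat 2, so the number of groups in which this rat stood apart follows in part from the choice of miRNAs and is a description. Sham rat 2 was the highest of the 4 sham rats in 16 of them. Its ratio was 0.945 for miR-146a-5p, 0.876 for miR-146b-5p, 0.901 for miR-150-3p, 0.991 for miR-185-5p, 0.956 for miR-200c-3p and 0.99 for miR-24-3p. It was 0.97 for miR-3068-5p, 0.992 for miR-455-3p, 0.986 for miR-494-3p, 0.95 for miR-7a-5p and 0.947 for miR-7b. It was 1 for miR-1b, miR-206-3p, miR-29a-5p, miR-323-3p and miR-503-5p, where the 3 other sham rats had the same level, 0 CPM, and of these miR-29a-5p and miR-206-3p rest on 1 and 2 reads in sham rat 2. Sham rat 2 was the lowest of the 4 for miR-500-3p, with a ratio of 0.882, and sham rat 4 alone had reads of miR-6333, with a ratio of 1.

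Among TBI− rats, rat 2, whose library was the shallowest of the group, was the highest for let-7f-5p (0.613) and miR-30e-5p (0.524). Rat 4, the next shallowest, was the highest for miR-124-3p (0.683), miR-200c-3p (0.735), miR-328b-3p (0.523) and miR-455-5p (0.553). Rat 7 was the highest for miR-466c-5p (0.544) and miR-494-3p (0.618), and rat 1 for miR-129-5p (0.502). Rat 9 was the highest for miR-1b (0.73), and rats 6 and 5 alone had reads of miR-3068-5p and miR-6333, each with a ratio of 1.

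The TBI− to sham difference changed between D2 and D9, by the edgeR test of the interaction, for 7 miRNAs. The change in log2FC was 2.25 for let-7d-3p, 1.8 for let-7f-5p, 2.82 for miR-1249, 2.27 for miR-222-3p, 1.62 for miR-223-3p, −3.78 for miR-129-5p and −4.7 for miR-185-5p. The D9 sham libraries held fewer reads than the TBI− libraries of the same day, and with all libraries of both days thinned to the smallest total 6 miRNAs were called, 4 higher and 2 lower. Let-7d-3p (2.10), let-7f-5p (1.63), miR-1249 (2.82) and miR-222-3p (2.26) were called again, miR-22-3p (−1.42) and miR-24-3p (−1.96) were added, and miR-223-3p, miR-129-5p and miR-185-5p had edgeR adjusted p of 0.152, 0.152 and 0.588.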

How the results depend on the processing

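Of the 26 calls on D9, the count was 17 at equal depth, 207 with voom (a fit without a filter on low counts) and, by library number, 13 with TBI− rats 1 to 4 and 9 only and 18 (6 higher, 12 lower) with TBI− rats 5 to 8 only. Leaving out 1 rat at a time gave 0 to 32 calls, with 17 without sham rat 1, 0 without sham rat 2, 16 without TBI− rat 3, 5 or 9 and 17 without TBI− rat 6. Without sham rat 2, it was 0 with RLE factors, library totals, miR-28-3p scaling or the filter on low counts, 1 at equal depth and 10 with DESeq2. Settings chosen after seeing the data gave, also without sham rat 2, 247 with voom, 48 with voom and the filter, 6 with DESeq2 filtered for 0.05, 3 with DESeq2 at equal depth, 1 with TBI− rats 1 to 4 and 9, 29 with TBI− rats 5 to 8 (15 higher, 14 lower), and 0 with robust variances or the red cell ratio as a term. Without a further sham rat the count was 1 (rat 1), 0 (rat 3) and 0 (rat 4). With the library total as a term, it was 0 with and 0 without sham rat 2. The cause was not tested.

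With the replicate block, which pairs rats by number only, 6 miRNAs were called on D9, and the pairing has no basis in the design. The interaction had 7 calls, 4 to 20 without 1 sham rat (20 without sham rat 2, 4 without sham rat 3 and 11 without sham rat 4), 6 at equal depth and 9 with no replicate block. The gap in totals was 1087769 to 1160291 reads without 1 sham rat, with adjusted p over 0.05 each time, and that in detected miRNAs 68.0 to 93.0, past the threshold only without sham rat 4, and 4.47 at equal depth.

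Over all settings, log2FC turned sign at least once in 11 of the 26 called miRNAs and in 22 of the 35 other named ones. The highest value was 0.099 for miR-146a-5p, 0.53 for miR-194-5p, 0.32 for miR-25-5p and 2.41 for miR-7b. Without sham rat 2, the values of others were as follows with TMM, RLE, totals and miR-28-3p in turn. MiR-185-5p had 0.062, 0.030, 0.098 and 0.13 (0.0007 by DESeq2), miR-1b 1.64, 1.65, 1.65 and 1.62, and miR-206-3p 0 in all 4. MiR-455-3p had 0.82, 0.78, 0.79 and 0.78, miR-494-3p 1.47, 1.45, 1.48 and 1.42, and miR-503-5p 4.32, 4.34, 4.34 and 4.26. Thinned, miR-455-3p had 2.66, miR-494-3p 2.17, miR-503-5p 1.47 and miR-3068-5p 0. With the library total as a term, miR-1b had 0.45 and miR-503-5p 4.55. Leaving out each rat in turn, the lowest values were −6.60 (miR-185-5p), −6.17 (miR-1b), −5.05 (miR-206-3p), −5.29 (miR-455-3p), −3.86 (miR-494-3p) and −4.03 (miR-503-5p). MiR-124-3p, with 0 sham reads, had −2.20 by voom with all rats. Depth limits what sham libraries can show below 8.38 to 21.3 CPM.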
